A study of Homo sapiens with 12 samples.

Results

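Molecular chaperones were examined in K562 cells, a human erythroleukaemia line, with and without the heme transporter HRG1 and with and without sodium butyrate. The set held every gene of the count table whose symbol names an HSP70, HSP110, HSP90, HSP60, HSP10 or small heat shock protein, a J protein of the DNAJA, DNAJB or DNAJC families, or a subunit of the chaperonin TRiC. This rule on symbols used no measured value and found 83 of 28278 genes. They were sorted by location or family of the protein into 22 cytosolic, 13 endoplasmic reticulum (ER), 8 mitochondrial, 9 TRiC and 7 small heat shock protein genes, with 24 others. Which side of a membrane a protein faces was not considered, so the ER group is not limited to proteins inside the ER. The others were J proteins of other or unsettled location, distant HSP70 relatives, the HSP70 pseudogene HSPA7, and HSPB11, which is named for the family but works in cilia.

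Each of the 4 groups held 3 libraries of total RNA from unedited cells (WT) or HRG1-KO cells (KO), either untreated or given sodium butyrate, a histone deacetylase inhibitor that drives K562 cells towards the erythroid lineage. Treated cells received 0.75 mM butyrate 24 h after plating and again 48 h later, with collection 6 h after that. The series places all samples at day 8. The labels do not give the number of KO clones, how the knockout was made, or whether replicates were separate cultures, so genotype and clone cannot be told apart and p-values measure only the spread between these libraries, which may be technical.

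Chaperones bind unfolded protein and let it fold, move or be degraded. HSP70 proteins do so in cycles of ATP hydrolysis that J proteins start and nucleotide exchange factors such as HSP110 end; HSP90 takes over late folding steps, TRiC encloses actin, tubulin and other substrates, and small heat shock proteins hold unfolded protein without ATP. Cytosolic chaperone genes are driven by heat shock factor 1 (HSF1) through heat shock elements, and ER chaperone genes by the unfolded protein response through ER stress elements. In red cell precursors HSPA1A is known to protect the transcription factor GATA1.

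SLC48A1, the gene of HRG1, was first checked in every library. WT libraries held 58.9 to 83.8 CPM, the counts of a gene per unit of library total scaled by TMM, and KO libraries 2.94 to 10.1 CPM, so no library went against its label. Library totals ran from 19963594 to 30348538 counts. All 11 erythroid markers of a fixed list, among them GATA1 and TAL1, exceeded 3 counts in every library. The summed level of the erythroid list was 6561 to 14191 CPM in untreated WT, 18567 to 48408 in treated WT, 3580 to 6189 in untreated KO and 4721 to 6235 in treated KO. The megakaryocyte list, with PF4 and GP1BB at 0 throughout, summed to 30.6 to 52.6 CPM in untreated and 101 to 211 in treated WT, and to 15.0 to 54.5 and 76.8 to 101 in KO. A stromal and epithelial list, with KRT5 and CDH5 at 0 throughout, summed to 41.6 to 57.1 and 90.8 to 127 CPM in WT and to 53.4 to 78.8 and 99.4 to 176 in KO, so both lists were higher in all treated libraries. The lymphoid and myeloid lists, with MS4A1 and S100A8 at 0 throughout, summed to at most 24.4 and 28.97 CPM in any library. At these low levels the myeloid sum was also higher in all treated libraries of each genotype. It was 12.2 to 17.1 and 18.7 to 25.1 CPM in WT and 3.37 to 9.23 and 23.9 to 28.97 in KO. The lymphoid sum rose in KO, from 4.07 to 5.66 CPM untreated to 9.46 to 12.4 treated. In WT its ranges overlapped, at 14.8 to 22.5 and 11.7 to 24.4 CPM. The part of these lists in the results below was not tested, and in bulk RNA fewer cells of a type and less RNA per cell cannot be told apart. The share of ribosomal RNA gene RNA28SN5 ran from 0.673% to 5.63% of counts and was highest in replicate 1 of treated WT. It fell from replicate 1 to 2 to 3 in every group. In WT it was 4.69%, 2.86% and 0.930% untreated and 5.63%, 1.48% and 0.847% treated. In KO it was 3.36%, 1.15% and 0.699% untreated and 2.30%, 1.31% and 0.673% treated. This share thus followed the replicate number, and its part in the results below was not tested.

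Chaperone genes took 1.35% to 1.86% of all counts of a library. Per kilobase of annotated exon, HSP90AB1, the constitutive cytosolic HSP90, had the highest level, with a mean of 974 CPM per kilobase (RPKM) over the 12 libraries. The constitutive HSP70 gene HSPA8 followed at 253 RPKM, the inducible HSP90 gene HSP90AA1 at 232, the ER HSP90 gene HSP90B1 at 190, the TRiC subunit gene CCT8 at 183 and HSPA5, which encodes the ER HSP70 BiP, at 175. These levels rest on all annotated exons of a gene, so a gene with long rarely used exons is understated.

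Most TRiC genes were close to one another in level. Of the 9 genes, 8 lay between 85.4 RPKM (TCP1) and 183 RPKM (CCT8), and the exception was CCT6B at 0.312, a paralogue of CCT6A known from testis. By contrast, 11 of 22 cytosolic, 5 of 13 ER, 4 of 8 mitochondrial and 1 of 7 small heat shock protein genes exceeded 10 RPKM, the last being HSPB1 (HSP27) at 81.8. HSPA2, DNAJB3, DNAJC5B and DNAJC15 had 0 counts in all 12 libraries. HSPA12A, DNAJB8 and HSPB8 had too few counts to be tested, which left 76 of 83 genes for the tests among 15805 genes in all.

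Promoter motifs occurred in different shares of the compartments. The rule on symbols did not use them. Heat shock and ER stress elements are known from chaperone genes of these kinds, however, so finding them here is not an independent result. RefSeq promoters (GRCh38.p14, from 250 bases before to 50 bases after a start) were found for 72 of the 83 genes. The heat shock element was searched as 3 alternating units with any 2 bases between units, GAA, TTC and GAA or its reverse complement TTC, GAA and TTC. It occurred in 7 of these 72 genes (9.72%) and in 0.608% of all 27305 genes with a promoter. The 7 were the cytosolic DNAJA1, DNAJB6, HSP90AA1, HSP90AB1, HSPA6 and HSPA8 and the mitochondrial HSPD1. A shorter core of 2 units, GAANNTTC or TTCNNGAA, lies inside that element and was chosen after matches had been seen. It occurred in 26 of 72 genes (36.1%) against 16.2% of all. These were 13 of 21 cytosolic, 4 of 8 TRiC, 4 of 6 small heat shock protein, 3 of 8 mitochondrial, 0 of 12 ER and 2 of 17 other genes. They are not all separate sites: HSPA1A and HSPA1L share the same bases on opposite strands, and HSPA1B holds the same letters.

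The stretches below carry the heat shock matches of the cytosolic genes and of HSPD1 whose levels are described next, with the match in capitals. They lie at chr6:31815428-31815457 (HSPA1A, plus strand), chr19:14518428-14518487 (DNAJB1, minus), chr11:123062171-123062200 (HSPA8, minus), chr14:102087112-102087141 (HSP90AA1, minus), chr6:44247768-44247852 (HSP90AB1, plus) and chr2:197500061-197500090 (HSPD1, minus), all 5′ to 3′ on the gene's strand and before its RefSeq start. HSPA1A and DNAJB1 show the core, and the other genes the full element. HSPA8 and HSP90AB1 hold it at 2 separate places, of which only the one nearer the start is shown for HSPA8, and HSPD1 holds 2 overlapping matches.
HSPA1A: aaaaccctgGAATATTCccgacctggcagc
DNAJB1: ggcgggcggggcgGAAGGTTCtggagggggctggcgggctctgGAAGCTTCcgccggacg
HSPA8: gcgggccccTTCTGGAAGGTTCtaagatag
HSP90AA1: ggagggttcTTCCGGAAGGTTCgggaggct
HSP90AB1: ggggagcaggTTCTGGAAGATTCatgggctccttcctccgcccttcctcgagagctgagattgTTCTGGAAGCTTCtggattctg
HSPD1: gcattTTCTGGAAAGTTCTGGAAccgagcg

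The ER stress element was searched on both strands as CCAAT and CCACG with any 9 bases between. It occurred in 2 of the 72 genes (2.78%), both of the ER, against 0.0916% of all genes with a promoter. These were HSPA5 at chr9:125241374-125241433 (minus strand) and HSP90B1 at chr12:103930212-103930251 (plus strand), shown with the element in capitals. HSP90B1 also holds a match on the other strand, nearer its start, which is not shown.
HSPA5: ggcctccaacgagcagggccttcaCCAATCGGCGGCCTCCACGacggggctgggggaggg
HSP90B1: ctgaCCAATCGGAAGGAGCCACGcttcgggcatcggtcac

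Among genes that work with the ER chaperones, 5 of 19 with a promoter held the same element: CALR, CANX, CRELD2, PDIA6 and XBP1. The amino acid response element, TGATGCAAT or TGATGAAAC on either strand, occurred in 0 of the 72 chaperone genes and in 0.575% of all. A match says that these letters are in the window, not that a factor was bound there in these cells, and no match says only that the letters are not in this window.

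The first comparison asked how chaperone genes changed with butyrate in unedited cells. In WT, 2 cytosolic J protein genes rose, DNAJB1 and DNAJB2, and DNAJC12 fell. These were 3 of 76 chaperone genes at an adjusted p under 0.05 in the edgeR quasi-likelihood test with Benjamini-Hochberg adjustment, against 2.35% of all tested genes (1.8% higher and 0.55% lower). The inducible HSP70 genes HSPA1A and HSPA1B had higher means that did not pass the test. Most ER, mitochondrial and TRiC genes had lower means, none past the threshold.

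DNAJB1 encodes the main J protein partner of HSPA1A and HSPA8 in the heat shock response. It was at 84.1, 62.9 and 100.4 CPM in replicates 1, 2 and 3 of untreated WT, and at 214, 229 and 187 CPM in treated WT. Every treated library was above every untreated library. The log2 fold change was 1.35 ± 0.23 (SE, edgeR, adjusted p = 0.013), a 2.55-fold rise. The exact permutation test gave p = 0.1, the smallest that 3 libraries against 3 allow (n = 3). The call was lost without replicate 1 or 2 of untreated WT or replicate 2 of treated WT, with adjusted p up to 0.0721 in edgeR and a log2 change of 1.18 to 1.52.

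DNAJB2, a J protein that passes HSP70 clients to the proteasome and is best known from neurons, was lower in level. It stood at 1.73, 4.04 and 6.39 CPM in untreated WT and 13.5, 18.1 and 19.96 CPM in treated WT, again without overlap. Its log2 fold change was 2.07 ± 0.39 (edgeR adjusted p = 0.0204). The call was lost without replicate 1 or 2 of untreated WT or replicate 2 or 3 of treated WT, with adjusted p up to 0.0923 in edgeR. DNAJC12, whose protein assists aromatic amino acid hydroxylases, fell from 55.6, 84.4 and 41.2 CPM to 21.3, 21.5 and 20.2 CPM. All treated libraries were below all untreated ones, with a log2 fold change of -1.52 ± 0.26 (edgeR adjusted p = 0.013). This call was lost without replicate 2 of either WT group, with adjusted p up to 0.071 in edgeR.

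The copies HSPA1A and HSPA1B lie 12195 bases apart on chromosome 6 and encode nearly the same HSP70, induced by stress. Of all 100-base stretches of their transcripts, 67.3% (HSPA1A) and 72.7% (HSPA1B) also occur in a transcript of another gene, so how reads were split between them is uncertain. HSPA1A was at 313, 103 and 469 CPM in untreated WT and at 1593, 438 and 627 CPM in treated WT. HSPA1B was at 236, 97.3 and 335 CPM in untreated WT and at 1800, 362 and 446 CPM in treated WT. Replicate 1 of treated WT was far above all other libraries for both genes. HSPA1A overlapped between the groups and HSPA1B did not.

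With both copies summed, a choice made after seeing the data, untreated WT held 549, 199.8 and 804 CPM and treated WT 3394, 799 and 1073 CPM. Treated replicate 2 lay below untreated replicate 3, so the groups overlapped. The log2 fold change was 1.76 ± 0.59 (edgeR adjusted p = 0.143), and 0.84 (adjusted p = 0.308) without replicate 1 of treated WT. That library also had the highest share of RNA28SN5, 5.63%, the part of which was not tested.

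**Figure D1:**
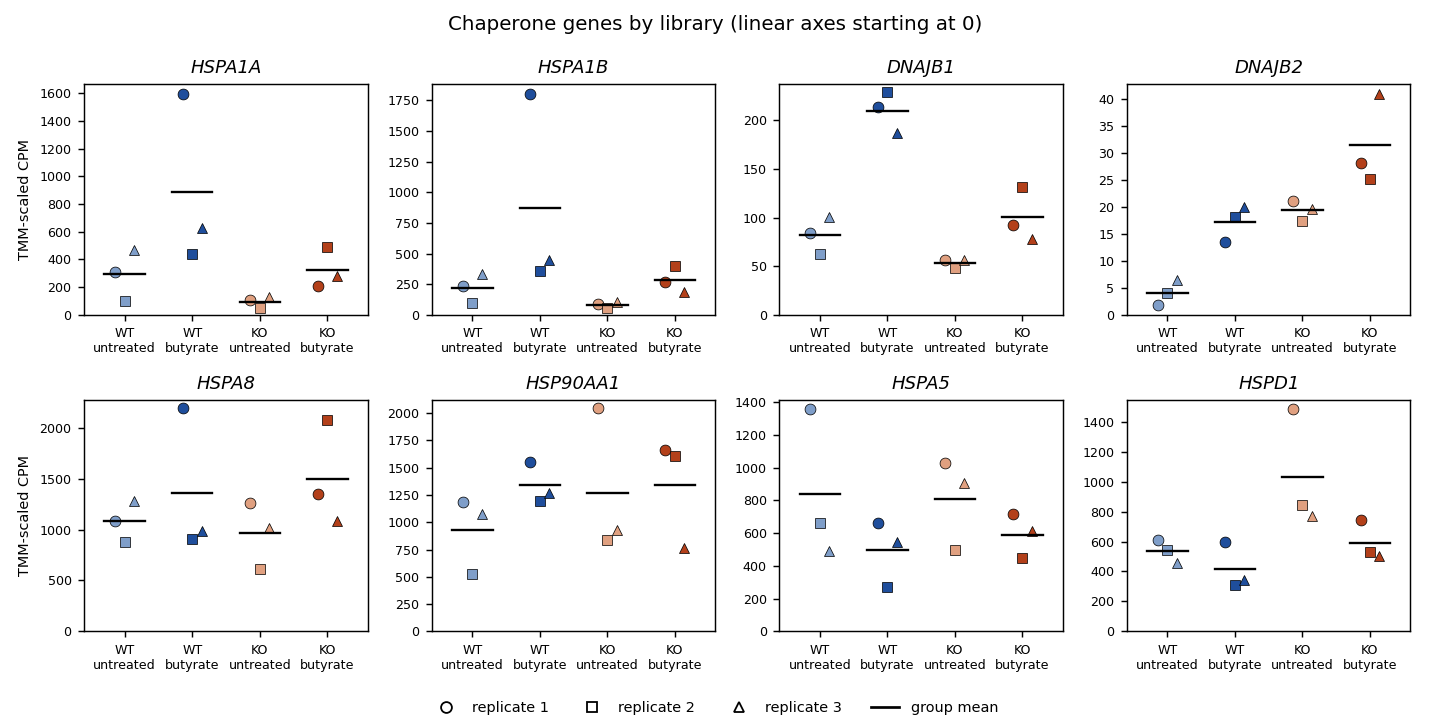
TMM-scaled CPM of 8 chaperone genes in each library (points, shaped by replicate number) with group means (bars), on linear axes that start at 0. DNAJB1 and DNAJB2 were higher in all treated WT libraries than in all untreated ones, replicate 1 of treated WT stands apart from its group for HSPA1A, HSPA1B and HSPA8, and HSPD1 had its highest mean in untreated KO.

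No difference passed the test for the other cytosolic chaperone genes in WT. HSPA8 was at 1084, 873 and 1282 CPM in untreated WT and at 2191, 907 and 982 CPM in treated WT, where only replicate 1 stood out (log2 0.33 ± 0.38, edgeR adjusted p = 0.705). HSP90AA1 was at 1181, 523 and 1074 CPM and then 1554, 1191 and 1272 CPM, with no overlap (log2 0.53 ± 0.41, adjusted p = 0.543). HSP90AB1 differed by -0.05 ± 0.20 and HSPH1, an HSP110 exchange factor, by -0.18 ± 0.45. DNAJC6, the clathrin-uncoating J protein auxilin, had the next smallest p after the 3 called genes. It stood at 53.9, 52.1 and 45.2 CPM untreated and 104, 82.8 and 83.9 CPM treated (log2 0.84 ± 0.22, edgeR adjusted p = 0.0714, and 0.0123 with the replicate number as a block).

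In the ER, 11 of 13 genes had negative log2 fold changes in WT, with a median of -0.38 against 0.02 over all tested genes. HSPA5 was at 1358, 663 and 490 CPM in untreated WT and 664, 273 and 547 CPM in treated WT. The groups overlapped, and the log2 change was -0.76 ± 0.42 (edgeR adjusted p = 0.372). HSP90B1 differed by -0.70 ± 0.38 (adjusted p = 0.37), DNAJB9, a J protein that restrains the stress sensor IRE1, by -0.27 ± 0.32, and DNAJC3, known as an inhibitor of the kinase PERK, by -0.41 ± 0.19. Among 20 genes of other ER folding and stress proteins 16 were negative, with a median of -0.44 and 0 past the threshold. The smallest p among them was that of ERO1A, the oxidase that drives disulfide formation (log2 -0.64 ± 0.19, edgeR adjusted p = 0.107).

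In the mitochondrial group 6 of 7 tested genes were negative, with a median of -0.48. HSPD1, the matrix chaperonin HSP60, was at 613, 542 and 457 CPM in untreated WT and 594, 312 and 340 CPM in treated WT (log2 -0.37 ± 0.31, edgeR adjusted p = 0.587). HSPA9, the matrix HSP70 mortalin, differed by -0.63 ± 0.46 and HSPE1, the lid of HSP60, by -0.68 ± 0.47. Of 13 further mitochondrial chaperone and protease genes 10 were negative, with a median of -0.44 and 0 called. CLPX, the unfoldase of the ClpXP protease, had the smallest p of them (log2 -0.49 ± 0.16, edgeR adjusted p = 0.121).

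TRiC genes were negative in 8 of 9 cases with a smaller median, -0.16. CCT8 was at 773, 758 and 698 CPM in untreated WT and 613, 470 and 512 CPM in treated WT, with no overlap but no call (log2 -0.48 ± 0.19, edgeR adjusted p = 0.209). TCP1 differed by -0.08 ± 0.24 and CCT2 by -0.02 ± 0.29. All 9 genes of prefoldin and related TRiC partners were negative, with a median of -0.31 and 0 called. The cytosolic group had a median of -0.03, with 10 of 21 genes positive. Across all alternatives run, the medians in WT stayed between -0.53 and -0.16 for ER, -0.72 and -0.27 for mitochondrial and -0.43 and -0.03 for TRiC genes. The cytosolic median changed sign, from -0.20 without replicate 1 of treated WT to 0.16 without replicate 2 of it.

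Groups did not overlap for 6 higher and 10 lower chaperone genes in WT, where 21.7% of all tested genes did not overlap (11.3% higher and 10.4% lower). The count of calls itself depended on single libraries. It was 0 without replicate 2 of untreated WT or replicate 2 of treated WT (background 0.262% and 0.398%), 1 without replicate 1 of untreated WT (0.39%), and 6 without replicate 1 of treated WT (7.63%), so the share of all genes called moved with it. With the replicate number as a block, 5 genes were called (background 8.61%), the additions being DNAJC6 (higher) and DNAJC2 (lower). DESeq2 called 5 (background 8.42%), HSPA1B and DNAJC6 among them (adjusted p = 0.0135 and 0.00992), edgeR fitted to the 2 groups alone 0 (background 0.435%), and edgeR without the 4 libraries numbered 1 called 8 (background 11.4%). HSPA9 passed only where replicate 1 of treated WT was left out (log2 -1.42, edgeR adjusted p = 0.0462).

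The same treatment was then compared in KO cells. DNAJB1 was the only chaperone gene that passed, 1 of 76 against 3.4% of all tested genes (2.8% higher and 0.595% lower). Untreated KO held 56.1, 47.8 and 56.4 CPM of DNAJB1 and treated KO 92.4, 131 and 77.9 CPM. The groups did not overlap, and the log2 fold change was 0.91 ± 0.23 (edgeR adjusted p = 0.0477), a 1.88-fold rise. The call held in 1 of 6 fits that each left out 1 library, that without replicate 3 of treated KO, and adjusted p otherwise reached up to 0.222 in edgeR. It was also lost when the 4 libraries numbered 1 were left out (adjusted p = 0.0527) and when only the 2 KO groups were fitted.

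The inducible HSP70 genes did not overlap between untreated and treated KO. HSPA1A was at 106, 48.2 and 132 CPM and then 207, 489 and 280 CPM (log2 1.77 ± 0.60, edgeR adjusted p = 0.126, but 0.0361 with the block). HSPA1B was at 84.6, 53.2 and 107 CPM and then 265, 400.1 and 184 CPM (log2 1.80 ± 0.60, edgeR adjusted p = 0.123, and 0.0405 with the block). Summed, they stood at 191, 101 and 238 CPM and then 472, 890 and 464 CPM, a log2 change of 1.78 ± 0.59 (edgeR adjusted p = 0.122, and 0.0352 with the block). Here replicate 2 was the highest treated library, not replicate 1. HSPA1L, a testis HSP70 gene that starts 260 bases from HSPA1A on the other strand, was at 8.67, 7.42 and 9.83 CPM and then 27.7, 15.4 and 27.5 CPM (log2 1.44 ± 0.48, edgeR adjusted p = 0.124, and 0.0356 with the block).

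Below the threshold, DNAJC19, part of the motor that pulls proteins into the matrix, was at 56.0, 45.1 and 45.5 CPM in untreated KO and 31.1, 22.3 and 30.3 CPM in treated KO (log2 -0.81 ± 0.21, edgeR adjusted p = 0.0578, and 0.0156 with the block). HSPA13, an HSP70 relative of the ER, was at 46.9, 62.5 and 43.8 CPM and then 34.95, 23.5 and 23.2 CPM (log2 -0.91 ± 0.26, edgeR adjusted p = 0.0811, and 0.0337 with the block). For both genes all treated KO libraries lay below all untreated ones. DNAJB5, a cytosolic J protein, was at 1.39, 0.809 and 0.602 CPM and then 0.965, 9.42 and 14.3 CPM, so that replicate 1 of treated KO stayed within the untreated range (log2 3.16 ± 0.88, edgeR adjusted p = 0.0719). Without that library DNAJB5 and HSPA13 passed (adjusted p = 0.0135 and 0.0407). HSPD1 was at 1485, 845 and 768 CPM untreated and 743, 529 and 501 CPM treated, just without overlap (log2 -0.81 ± 0.31, edgeR adjusted p = 0.171, and 0.0152 with the block).

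By compartment the medians in KO were 0.27 for cytosolic, -0.31 for ER, -0.55 for mitochondrial and -0.26 for TRiC genes, beside 0.00 for all genes. Negative values were held by 11 of 13 ER, 6 of 7 mitochondrial and 9 of 9 TRiC genes, and by 8 of 21 cytosolic genes. HSPA5 differed by -0.45 ± 0.42, HSP90B1 by -0.71 ± 0.38, HSPA9 by -0.77 ± 0.46 and HSPE1 by -0.36 ± 0.47. In the cytosol, HSPA8 differed by 0.64 ± 0.38, HSP90AA1 by 0.08 ± 0.40, HSP90AB1 by -0.09 ± 0.20 and HSPH1 by -0.05 ± 0.45. None of these passed the test. Scaling by library size alone raised the median of all genes to 0.12 in this comparison, and the ER, mitochondrial and TRiC medians were then -0.18, -0.43 and -0.13.

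With the replicate block, 10 chaperone genes were called in KO, 4 higher and 6 lower, against 11.7% of all tested genes. The 4 were DNAJB1, HSPA1A, HSPA1B and HSPA1L, all cytosolic. The 6 lower genes were CCT8, DNAJC2, DNAJC10, DNAJC19, HSPA13 and HSPD1, of the TRiC, cytosolic, ER and mitochondrial groups. Without the block, groups failed to overlap for 10 higher and 12 lower genes, where 24.4% of all tested genes did not overlap (12.6% higher and 11.8% lower). DESeq2 called 8 (background 9.73%), HSPA1A and HSPA1B among them (adjusted p = 0.0242 and 0.0218), and edgeR called 9 without the libraries numbered 1 (background 13.1%), 2 with no filter on low counts (background 2.87%) and 2 when fitted to the KO groups alone (background 3.28%). Of the partner genes 0 passed in KO. The nearest were CLPX (log2 -0.61 ± 0.16, edgeR adjusted p = 0.0537) and GRPEL2, a nucleotide exchange factor of mortalin (log2 -0.93 ± 0.24, adjusted p = 0.0558).

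**Figure D2:**
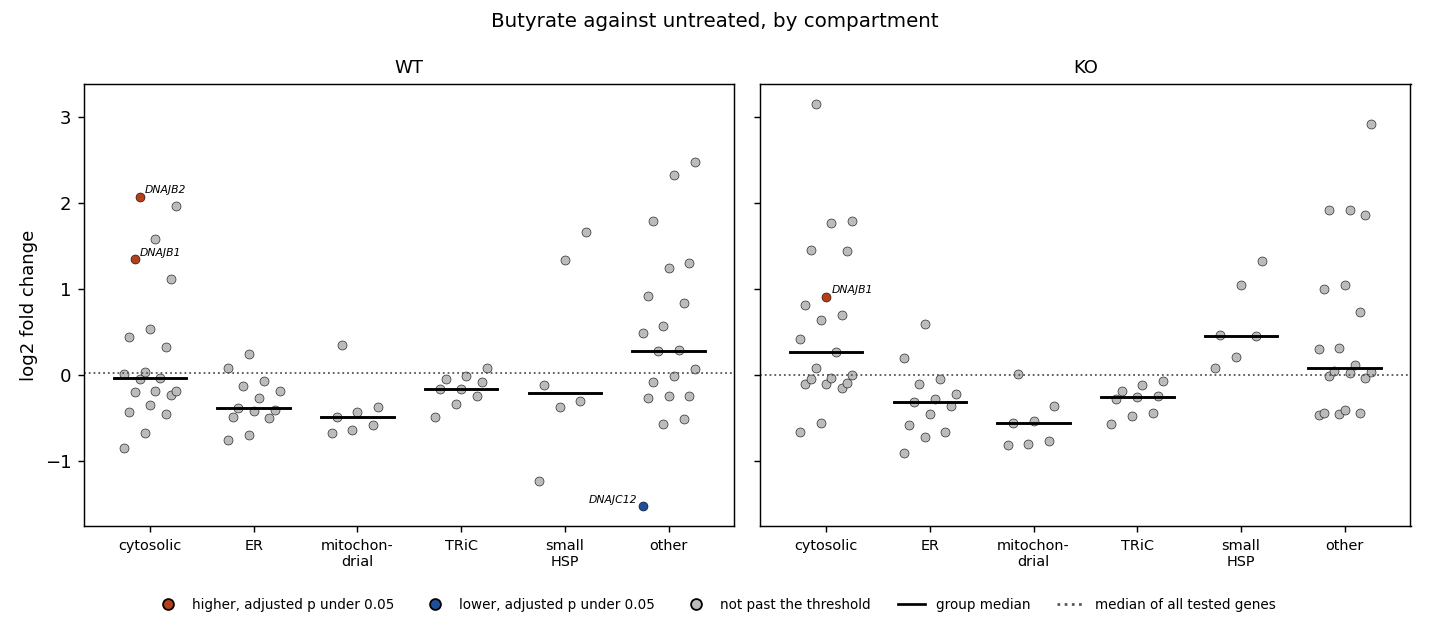
Log2 fold change with butyrate of each tested chaperone gene (points) in WT and KO, by compartment, with the group median (bar) and the median of all tested genes (dotted line). The medians were -0.38 and -0.31 for ER, -0.48 and -0.55 for mitochondrial and -0.16 and -0.26 for TRiC genes in WT and KO, and only DNAJB1, DNAJB2 and DNAJC12 passed the test in either.

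The summed shares show the size of these differences in whole counts. Cytosolic chaperones took 0.697% ± 0.0911 of counts in untreated WT and 0.862% ± 0.155 in treated WT (SD, n = 3), and 0.617% ± 0.127 and 0.772% ± 0.164 in KO. Mitochondrial chaperones took 0.158% ± 0.027 and 0.108% ± 0.0303 in WT, and 0.203% ± 0.0476 and 0.132% ± 0.0276 in KO. ER chaperones took 0.223% ± 0.0707 and 0.147% ± 0.0446 in WT and 0.256% ± 0.0583 and 0.192% ± 0.0309 in KO. The treated and untreated ranges overlapped for each of these 3 groups in both genotypes. Within libraries of the same number, the mitochondrial share was lower with butyrate in 3 of 3 pairs in WT and in KO, the ER share in 2 of 3 pairs in WT and 3 of 3 in KO, and the cytosolic share was higher in 3 of 3 and 2 of 3 pairs. TRiC genes summed to 4069 ± 550 and 3528 ± 988 CPM in WT (exact permutation p = 0.4, n = 3) and 4406 ± 779 and 3511 ± 404 CPM in KO (exact permutation p = 0.2, n = 3), lower in 3 of 3 same-numbered pairs in each genotype. These permutation tests do not use the pairs, which were described only.

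A difference between genotypes in the butyrate response was tested as an interaction, the log2 change in KO minus that in WT. In edgeR 0 of 76 chaperone genes and 0% of all tested genes passed, and 2 chaperone genes had an unadjusted p under 0.05 (background 4.16%). The first was DNAJC12, whose fall was seen in WT and not in KO, with an interaction of 1.49 ± 0.37 (edgeR adjusted p = 0.418); DESeq2 called it, 1 chaperone gene against 0.544% of all. The second was DNAJB2, with an interaction of -1.37 ± 0.53 (edgeR adjusted p = 1). HSPB9 and DNAJB5 came next, at 2.55 ± 1.28 and 2.04 ± 1.15. HSPB9 had few counts, 11, 10 and 19 in untreated and 5, 4 and 9 in treated WT. In KO they were 1, 5 and 6 untreated and 22, 4 and 5 treated, where only replicate 1 stood out. For DNAJB1 the interaction was -0.44 ± 0.32, and for HSPA1A and HSPA1B summed it was 0.02 ± 0.81.

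The genotypes were next compared in untreated cells. Of 76 chaperone genes 16 differed, 9 higher and 7 lower in KO, against 22.6% of all tested genes (11.7% higher and 10.9% lower), so the share was near the background. Cytosolic genes stood on both sides, with DNAJA2, DNAJB2 and HSPA4L higher and DNAJB5, DNAJB6 and DNAJC2 lower. One ER gene (DNAJC3) and 1 mitochondrial gene (HSPD1) were higher, and 0 TRiC genes were called. HSPB1, the main small heat shock protein gene of these cells, and DNAJC12 were lower.

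DNAJC12 showed the largest difference among the called genes. It was at 55.6, 84.4 and 41.2 CPM in untreated WT and at 2.89, 2.71 and 2.98 CPM in untreated KO, where counts were 54, 57 and 89. The log2 difference was -4.40 ± 0.29 (edgeR adjusted p = 1.17e-06), that is 0.0475 of the WT level. In treated cells the values were 21.3, 21.5 and 20.2 CPM in WT and 2.94, 2.35 and 3.13 CPM in KO (log2 -2.90 ± 0.28, edgeR adjusted p = 2.03e-05). The KO level was thus low with and without butyrate, and both calls held in every fit that left out 1 library.

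HSPB1 encodes HSP27, an ATP-independent holdase also known to act on actin and on red cell maturation. It was at 304, 145 and 225 CPM in untreated WT and 55.5, 53.1 and 80.8 CPM in untreated KO. The difference was -1.83 ± 0.29 on the log2 scale (edgeR adjusted p = 0.000668). With butyrate it was at 210, 170 and 140 CPM in WT and 57.3, 84.8 and 77.5 CPM in KO (log2 -1.24 ± 0.28, edgeR adjusted p = 0.00889). No KO library reached any WT library in either setting, and both calls held in all leave-one-out fits.

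Other small heat shock protein genes called in untreated cells had few counts. HSPB3 counts were 30, 72 and 72 in untreated WT and 0, 1 and 12 in untreated KO (edgeR adjusted p = 0.026), and the call was lost without replicate 2 or 3 of untreated WT or replicate 1 or 2 of untreated KO (adjusted p up to 0.0995). HSPB2 counts were 1, 2 and 13 in untreated WT and 38, 23 and 162 in untreated KO (edgeR adjusted p = 0.0211), lost without replicate 1 or 2 of untreated WT or replicate 3 of untreated KO (adjusted p up to 0.086). Both are known from muscle. Of the 100-base stretches of HSPB2, 50.3% are shared with the read-through gene HSPB2-C11orf52, so its reads cannot be assigned with certainty. The summed share of the small group was 0.0149% to 0.0284% in untreated WT and 0.00532% to 0.00866% in untreated KO, without overlap, and HSPB1 made up most of it.

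In the ER group DNAJC3 was the only gene called in either setting. It was at 37.2, 32.3 and 30.5 CPM in untreated WT and 74.9, 73.1 and 71.4 CPM in untreated KO (log2 1.13 ± 0.19, edgeR adjusted p = 0.000888). With butyrate WT held 27.2, 19.6 and 28.4 CPM and KO 79.1, 70.4 and 62.5 CPM (log2 1.49 ± 0.19, edgeR adjusted p = 0.00017). All KO libraries were above all WT libraries, and the call held in every leave-one-out fit. For the ER chaperone genes HSPA5, HSP90B1 and DNAJB9 no difference passed the test. HSPA5 differed by -0.05 ± 0.41, HSP90B1 by 0.40 ± 0.38 and DNAJB9 by -0.57 ± 0.32 in untreated cells, with adjusted p from 0.231 to 0.957 in edgeR. The ER median was 0.06 in untreated cells, from -0.01 to 0.17 over the alternatives, and 0.11 in treated cells.

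HSPD1 was at 613, 542 and 457 CPM in untreated WT and 1485, 845 and 768 CPM in untreated KO. All KO libraries were higher (log2 0.94 ± 0.31, edgeR adjusted p = 0.0456). The call held in 1 of 6 leave-one-out fits, that without replicate 3 of untreated KO, and adjusted p reached up to 0.214 in edgeR, in the fit without replicate 1 of untreated KO. With DESeq2 size factors in edgeR the adjusted p was 0.0522. HSPE1 starts 105 bases from HSPD1 in the opposite direction. It was at 39.8, 13.4 and 13.7 CPM in untreated WT and 57.4, 30.8 and 30.0 CPM in untreated KO, where the ranges overlapped (log2 0.82 ± 0.47, edgeR adjusted p = 0.244; 0.0033 with the replicate block and 0.0348 without replicate 1 of untreated WT). Treated cells showed 20.3, 11.99 and 9.53 CPM of HSPE1 in WT and 45.9, 23.1 and 22.9 CPM in KO (log2 1.14 ± 0.48, edgeR adjusted p = 0.12, and 0.00127 with the block). Each KO library held more HSPE1 than the WT library of the same number and treatment. In treated cells HSPD1 differed by 0.51 ± 0.31 (edgeR adjusted p = 0.294, and 0.0312 with the block). Their summed level was 559 ± 91.1 CPM in untreated WT and 1072 ± 409 CPM in untreated KO (exact permutation p = 0.1, n = 3). The matrix HSP70 gene HSPA9 differed by -0.03 ± 0.46 in untreated cells.

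Among cytosolic genes, HSPA4L, an HSP110 exchange factor, was at 48.7, 34.4 and 38.4 CPM in untreated WT and 80.6, 76.7 and 84.1 CPM in untreated KO (log2 0.99 ± 0.24, edgeR adjusted p = 0.0105). Its treated values were 29.7, 30.3 and 35.5 CPM in WT and 59.8, 115 and 68.1 CPM in KO (log2 1.34 ± 0.24, adjusted p = 0.0021). Its relatives HSPH1 and HSPA4 differed by 0.47 ± 0.45 and 0.03 ± 0.21 in untreated cells. DNAJA2, a J protein partner of HSPA8, was at 83.4, 74.5 and 67.4 CPM in untreated WT and 136, 119 and 139 CPM in untreated KO (log2 0.81 ± 0.23, edgeR adjusted p = 0.0243). That call was lost in 4 of 6 leave-one-out fits, without replicate 2 or 3 of untreated WT or replicate 1 or 3 of untreated KO, with adjusted p up to 0.101.

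DNAJB2 stood at 1.73, 4.04 and 6.39 CPM in untreated WT and 21.1, 17.3 and 19.5 CPM in untreated KO (log2 2.24 ± 0.39, edgeR adjusted p = 0.00139, held in all leave-one-out fits). With butyrate the genotypes stood at 13.5, 18.1 and 19.96 CPM and 28.2, 25.1 and 40.8 CPM (log2 0.86 ± 0.37, edgeR adjusted p = 0.131). Untreated KO libraries thus lay at the level of treated WT libraries. DNAJB1 was lower in KO in each setting, by -0.63 ± 0.23 untreated (edgeR adjusted p = 0.0658, but 0.049 with the block and 0.0407 without replicate 2 of untreated WT) and by -1.06 ± 0.23 treated (adjusted p = 0.00601, held in all leave-one-out fits).

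The inducible HSP70 genes also had lower means in KO. HSPA1A and HSPA1B summed to 518 ± 303 CPM in untreated WT and 177 ± 69.6 CPM in untreated KO (log2 -1.55 ± 0.59, edgeR adjusted p = 0.0786, and 0.0449 with the block). Untreated KO replicate 3, at 238 CPM, lay above untreated WT replicate 2, at 199.8 CPM. HSPA1A alone passed without that WT library (edgeR adjusted p = 0.0284) and with no filter on low counts (edgeR adjusted p = 0.0451). Singly, HSPA1A and HSPA1B also passed in untreated cells with DESeq2 (adjusted p = 0.0183 and 0.0395). Both passed too when edgeR was fitted to the 2 untreated groups alone (adjusted p = 0.0363 and 0.0231). In treated cells the sums were 1755 ± 1425 and 609 ± 243 CPM (log2 -1.53 ± 0.59, edgeR adjusted p = 0.0915). Without replicate 1 of treated WT this difference was -0.63 (edgeR adjusted p = 0.401), and with the block it was -1.22 (edgeR adjusted p = 0.119). HSPA1B alone passed without replicate 2 of treated WT (edgeR adjusted p = 0.047). DESeq2 called both HSPA1A and HSPA1B lower in treated KO (adjusted p = 0.0483 and 0.0238). HSPA6, a strictly stress-induced HSP70 gene, was at 4.82, 17.1 and 7.498 CPM in untreated WT and 0.589, 1.85 and 3.11 CPM in untreated KO (log2 -2.39 ± 0.88, edgeR adjusted p = 0.0707, and 0.00217 with the block), and 27.6% of its stretches are shared with the pseudogene HSPA7.

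For HSP90AB1, HSPA8, HSP90AA1 and the TRiC genes no genotype difference passed the test. HSP90AB1 was at 3505, 3281 and 3002 CPM in untreated WT and 3208, 2495 and 2333 CPM in untreated KO (log2 -0.28 ± 0.20, edgeR adjusted p = 0.34). HSPA8 differed by -0.17 ± 0.38 and HSP90AA1 by 0.45 ± 0.40. In TRiC, CCT3 (0.55 ± 0.27) and CCT5 (0.50 ± 0.29) had higher values and TCP1 (-0.47 ± 0.24) and CCT6A (-0.34 ± 0.27) lower ones in untreated cells, CCT2 differed by 0.28 ± 0.29, and the median of the 9 was -0.01, from -0.13 to 0.07 over the alternatives. CCT3 and CCT5 passed with the replicate block (adjusted p = 0.0142 and 0.0332).

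**Figure D3:**
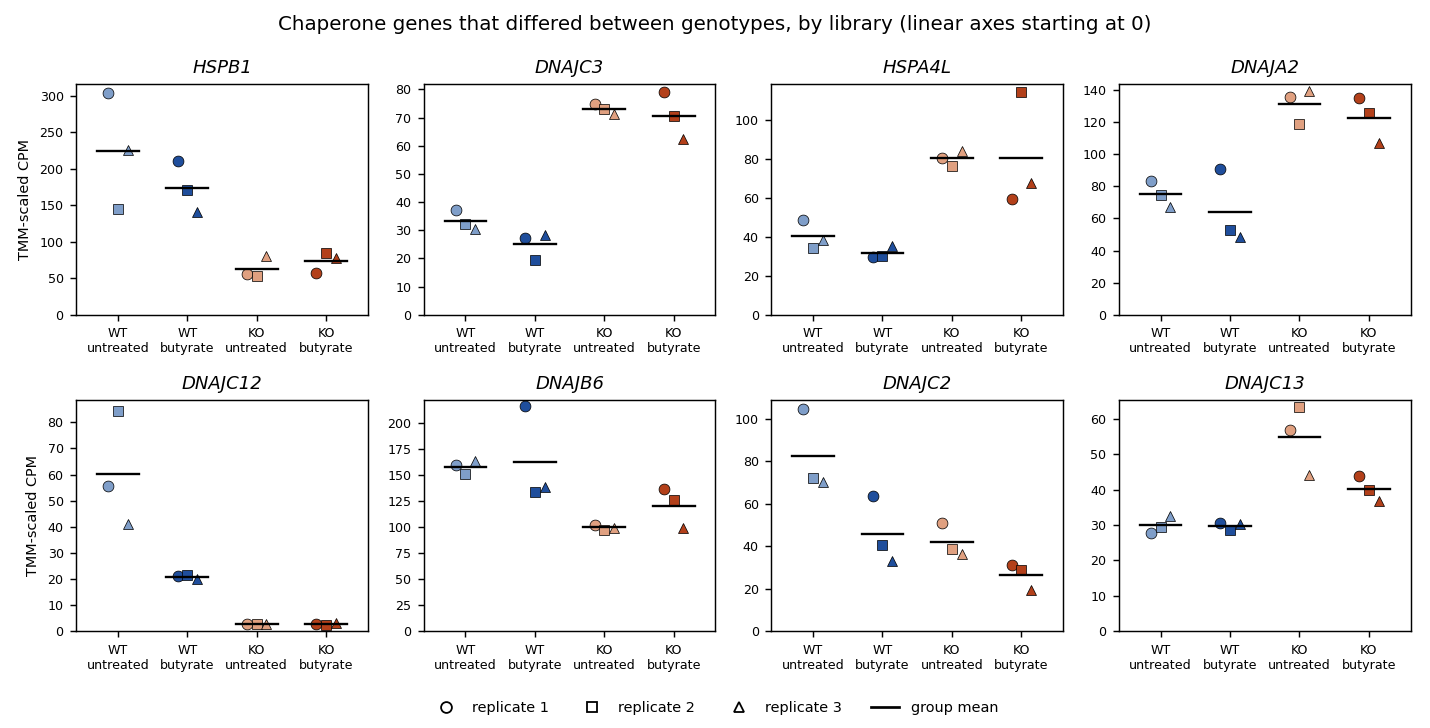
TMM-scaled CPM of 8 chaperone genes in each library (points, shaped by replicate number) with group means (bars), on linear axes that start at 0. HSPB1, DNAJC3, HSPA4L and DNAJC12 show no overlap between WT and KO libraries with or without butyrate, DNAJC12 staying between 2.35 and 3.13 CPM in all KO libraries.

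Other J protein genes called in untreated cells were DNAJC13, an endosomal sorting protein, DNAJC6, DNAJC2, a ribosome-bound J protein, DNAJB6, a suppressor of protein aggregation, DNAJB5 and the sperm axoneme gene DNAJB13. DNAJC13 was at 27.6, 29.6 and 32.6 CPM in WT and 56.9, 63.4 and 44.0 CPM in KO (log2 0.87 ± 0.18, edgeR adjusted p = 0.00458). DNAJC6 was at 53.9, 52.1 and 45.2 CPM and 119.8, 106 and 73.3 CPM (log2 0.98 ± 0.22, adjusted p = 0.00692). Both calls held in every leave-one-out fit. DNAJB6 was at 159.9, 151 and 163 CPM and 102, 97.5 and 99.6 CPM, the tightest of these genes (log2 -0.66 ± 0.20, edgeR adjusted p = 0.0336), yet its call was lost in all 6 leave-one-out fits, with adjusted p up to 0.0868. DNAJC2 was at 105, 72.2 and 70.3 CPM and 50.8, 38.9 and 36.4 CPM (log2 -0.97 ± 0.28, adjusted p = 0.0245), lost without replicate 1 of untreated WT or replicate 2 or 3 of untreated KO (adjusted p up to 0.103).

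DNAJB5 had 147, 182 and 391 counts in untreated WT and 26, 17 and 18 in untreated KO (log2 -3.41 ± 0.89, edgeR adjusted p = 0.0151), a call lost without replicate 2 or 3 of untreated KO (adjusted p up to 0.0598). DNAJB13 was at 13, 40 and 50 counts in WT and 4, 1 and 4 in KO (adjusted p = 0.0102). HSPA12B, a distant HSP70 relative known from endothelium, was at 25, 21 and 29 counts in WT and 60, 67 and 127 in KO (log2 1.69 ± 0.42, adjusted p = 0.0123), lost without replicate 3 of untreated WT (adjusted p = 0.0563).

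In treated cells 8 of 76 chaperone genes differed between genotypes, 4 higher and 4 lower in KO, against 19% of all tested genes (10.1% higher and 8.89% lower). Of these, 7 were also among the 16 of untreated cells: DNAJA2, DNAJC3, HSPA4L and HSPA12B higher, and DNAJC12, HSPB1 and DNAJB13 lower. DNAJB1 was the other. HSPA12B was at 20, 34 and 67 counts in treated WT and 190, 236 and 150 in treated KO (log2 2.20 ± 0.42, edgeR adjusted p = 0.00316). DNAJA2 was at 91.1, 52.6 and 48.4 CPM and 135, 126 and 107 CPM (log2 0.94 ± 0.23, adjusted p = 0.0137), lost without replicate 2 or 3 of treated WT (adjusted p up to 0.0648). DNAJB13 (log2 -2.72 ± 0.74, adjusted p = 0.0218) was lost in 4 of 6 such fits, without replicate 2 or 3 of treated WT or replicate 1 or 2 of treated KO (adjusted p up to 0.0932).

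Of the broadly expressed chaperones in treated cells, HSPA8 differed by 0.14 ± 0.38, HSP90AA1 by 0.00 ± 0.40, HSP90AB1 by -0.33 ± 0.20, HSPH1 by 0.61 ± 0.45 and HSPA9 by -0.16 ± 0.46. HSPA5 differed by 0.26 ± 0.42, HSP90B1 by 0.39 ± 0.38 and DNAJB9 by -0.41 ± 0.32, and TCP1 and CCT2 by -0.46 ± 0.24 and -0.14 ± 0.29. None of them passed in edgeR. Medians by compartment were 0.00 for cytosolic, 0.11 for ER, 0.20 for mitochondrial and -0.14 for TRiC genes.

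Groups did not overlap for 13 higher and 16 lower chaperone genes between genotypes in untreated cells, where 42.3% of all tested genes did not (22.2% higher and 20.2% lower), and for 8 higher and 13 lower in treated cells, where 33.9% did not (17.9% higher and 16% lower). With the replicate block, 25 chaperone genes were called in untreated cells (background 33%) and 16 in treated cells (background 29.2%). In treated cells DESeq2 called 13 (background 25.2%) and edgeR without the libraries numbered 1 called 15 (background 24.7%). The block added CCT3, CCT5, DNAJB1, DNAJB4, DNAJB11, DNAJC9, HSPA1A, HSPA6 and HSPE1 in untreated cells. In treated cells it added CCT3, DNAJB11, DNAJC2, DNAJC9, HSPB2, HSPB3, HSPD1 and HSPE1.

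**Figure D4:**
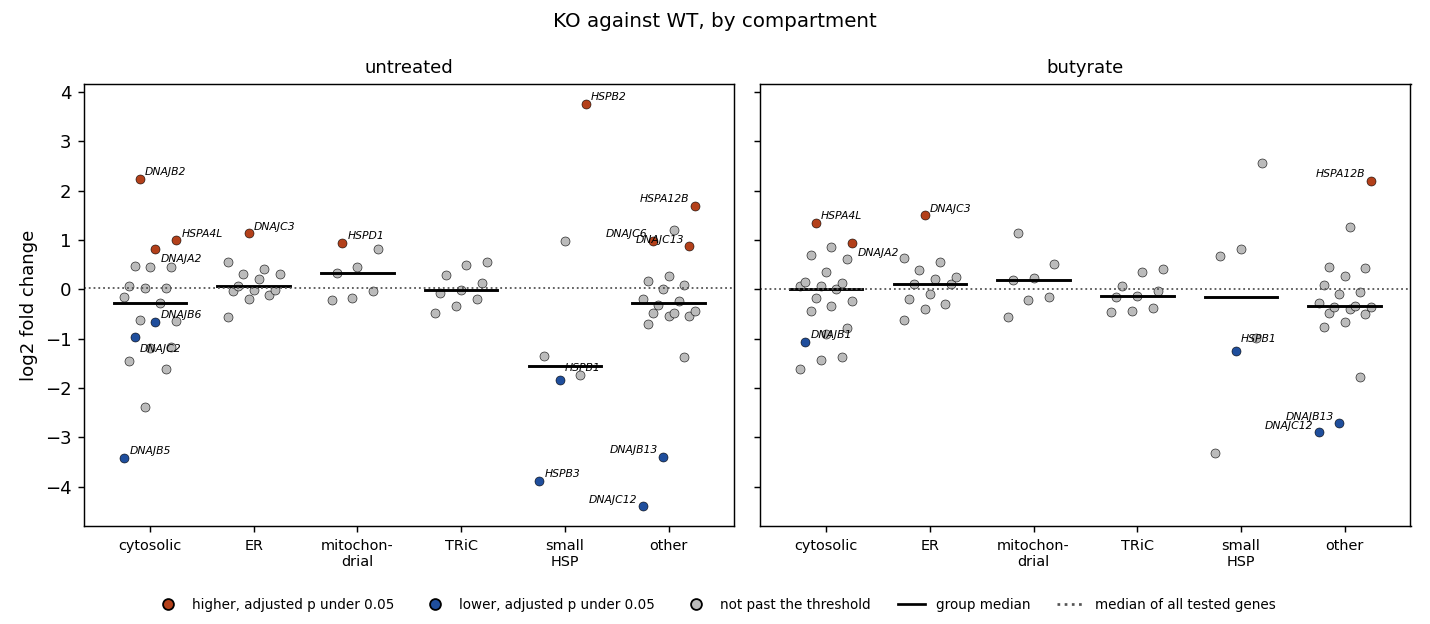
Log2 difference of KO from WT for each tested chaperone gene (points) in untreated and butyrate-treated cells, by compartment, with the group median (bar) and the median of all tested genes (dotted line). Called genes are named: 16 in untreated and 8 in treated cells, with 0 in the TRiC group and 1 in the ER group, DNAJC3, in both.

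Genotype differences also varied by chromosome. In untreated cells the median log2 difference over all tested genes was -0.78 on chromosome 7, where 41.1% were called, 0.93 on chromosome 13, where 52.6% were called, 0.63 on chromosome 14 and 0.45 on chromosome 3. HSPB1, DNAJB6 and DNAJC2 lie on chromosome 7, with CCT6A, DNAJB9 and DNAJC30, and the median of these 6 was -0.62. HSPB1 differed from its chromosome's median by -1.05 on the log2 scale, and DNAJB6 by 0.12. DNAJC3 lies on chromosome 13 and exceeded that median by 0.20, and HSPH1 on the same chromosome differed from it by -0.46. DNAJC13, with DNAJB11 and DNAJC19, lies on chromosome 3 and HSP90AA1 on chromosome 14. In treated cells the chromosome 7 and 13 medians were -0.85 and 0.82, from which HSPB1 differed by -0.39 and DNAJC3 by 0.67. The part of the chromosome in these genes' differences was not tested. DNAJC12 lies on chromosome 10 (median -0.11) and DNAJB2 and HSPD1 on chromosome 2 (median 0.10). These are medians of whole chromosomes, and the genes next to each member were not examined.

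**Figure D5:**
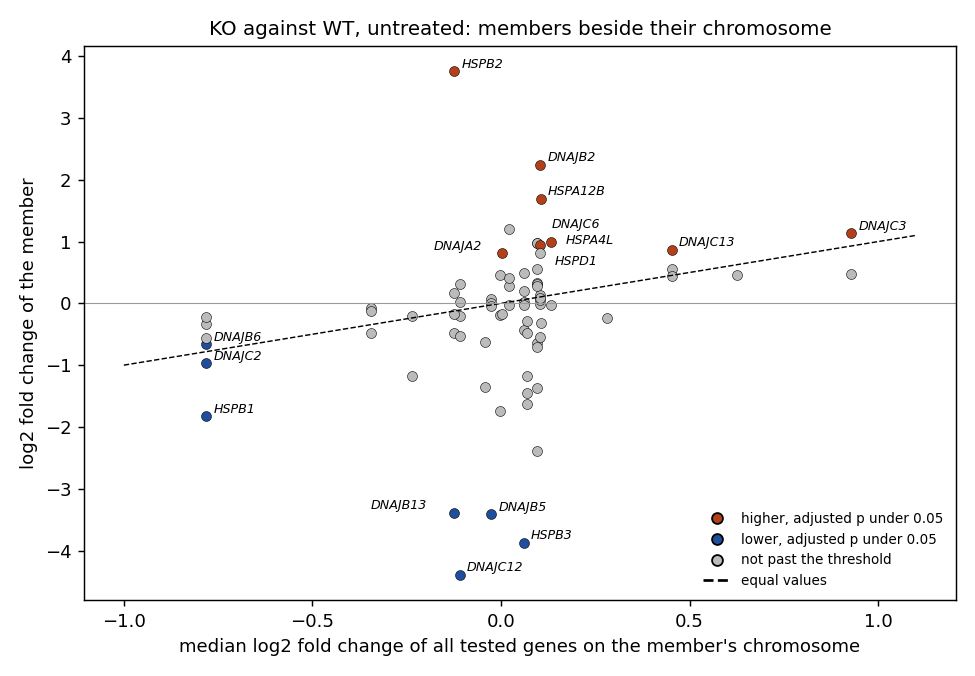
Log2 difference of KO from WT in untreated cells for each tested chaperone gene (vertical axis) against the median of all tested genes on its chromosome (horizontal axis), with the line of equal values. The chromosome 7 genes HSPB1, DNAJC2 and DNAJB6 sit at a chromosome median of -0.78 and DNAJC3 at 0.93, while DNAJC12 and DNAJB2 sit near 0 on the horizontal axis.

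Of 66 tested partner genes 9 differed between genotypes in untreated cells (13.6%) and 7 in treated cells (10.6%), against 22.6% and 19% of all tested genes. Of 24 cytosolic partners 3 were higher and 2 lower in untreated KO, of 20 ER partners 3 higher, of 13 mitochondrial partners 1 lower and of 9 TRiC partners 0. HSPBAP1, whose protein binds HSPB1, had 0, 2 and 0 counts in untreated WT and 195, 151 and 254 in untreated KO, and 0, 0 and 1 in treated WT and 144, 191 and 188 in treated KO (edgeR adjusted p = 2.57e-05 untreated and 3.6e-05 treated). It was thus at the limit of detection in all WT libraries and present in all KO libraries. CDC37L1, a relative of the HSP90 cochaperone CDC37, was at 12.5, 11.5 and 13.7 CPM in untreated WT and 3.42, 4.19 and 5.45 CPM in untreated KO (log2 -1.52 ± 0.28, edgeR adjusted p = 0.0017).

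BAG3, the HSF1-induced exchange factor of HSP70, was at 35.1, 26.1 and 37.4 CPM in untreated WT and 20.5, 20.7 and 19.1 CPM in untreated KO (log2 -0.71 ± 0.23, edgeR adjusted p = 0.0411). The HSP70 cochaperones ST13 (0.60 ± 0.17, adjusted p = 0.0241) and BAG5 (0.81 ± 0.24, adjusted p = 0.0289) were higher. In the ER, SEC63, a J protein of the translocon, PDIA6, a disulfide isomerase, and ERO1A were higher in untreated KO by 0.80 ± 0.19, 0.82 ± 0.23 and 0.79 ± 0.19 on the log2 scale (edgeR adjusted p = 0.00939, 0.0234 and 0.0113). They were higher in treated KO as well, together with HYOU1, the ER exchange factor of BiP (log2 0.97 ± 0.26, adjusted p = 0.0194). The mitochondrial protease gene AFG3L2 was lower by -1.27 ± 0.26 and -1.32 ± 0.26 (adjusted p = 0.00353 and 0.0034). ERO1A and BAG5 lie on chromosome 14, HSPBAP1 on chromosome 3 and AFG3L2 on chromosome 18, whose medians in untreated cells were 0.63, 0.45 and -0.52, and their part was not tested.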

How the data were processed

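The authors deposited 1 table of whole-number read counts per gene symbol for all 12 libraries. STAR 2.7.11b, FastQC 0.12.1 and the build hg38 are named per the submitters' processing notes; the counting tool, annotation and use of strand are not given in the sources used here, so overlapping, antisense and near-identical genes can carry each other's reads. All columns matched a sample title (0 unused), and 0 lines named no gene. Groups and replicate numbers came from the titles.

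Counts were analysed in R 4.3.3 with edgeR 4.0.16: filterByExpr (minimum count 10), TMM scaling, and a quasi-likelihood fit of 4 group means to all 12 libraries (biological coefficient of variation 0.384). The 5 contrasts were tested over 15805 genes, with p-values adjusted by Benjamini-Hochberg and called under 0.05. Errors after ± are SE for log2 changes and SD for levels. In a run on simulated counts of the WT butyrate contrast (14576 genes) the fit called 8.42% of 2-fold and 60.2% of 4-fold changes, and 2 of 14388 unchanged genes. Only 95 of these genes were changed 2-fold and 93 were changed 4-fold, and the simulated counts held no pairing by replicate number. The shares called were not measured for the other contrasts or for data with more changed genes. Exact permutation tests (two-sided) used log2 of CPM plus 0.1 for single genes and log2 of summed CPM with no offset for summed levels. The limit of detection was 3 counts, which is 0.0953 to 0.162 CPM, for counting error only.

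The chaperone genes, compartments, partner and marker lists were chosen with earlier results of these data known. A marker of the erythroid list is not reported here and was left out of its sum. Named genes were a panel of 17 (HSPA1A, HSPA1B, HSPA8, HSP90AA1, HSP90AB1, HSPH1, DNAJB1, HSPA5, HSP90B1, DNAJB9, DNAJC3, HSPA9, HSPD1, HSPE1, HSPB1, TCP1 and CCT2), all called members up to 12 per direction, and the 4 of smallest p where fewer passed; partners were named where called or with the 2 smallest p. Genes added by the block, and those named for level, copy number or sequence, were named after their values were seen. RPKM used the exon union of GENCODE v29. Same-numbered libraries deviated together from their group means, with a correlation of 0.212 to 0.663 in every pair of every contrast. For different numbers it was -0.588 to 0.418, where lower values are partly built in, since deviations from a group mean cancel out. The number was taken to pair libraries. The labels do not say that it is a batch, so the main fit and its calls left it out, and a fit with the replicate block was an alternative. No 2 replicates agreed within sampling noise (chi-square per degree of freedom at least 40.0). Other alternatives were DESeq2 1.42.0, other scalings and filters, each library left out, and the libraries numbered 1 left out.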

Additional observations from a re-analysis of the deposited data

How the results depend on the processing

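The WT butyrate count of 3 chaperone genes became 5 with the replicate block (8.61% of all genes called) and 5 with DESeq2 (8.42%). It was 0 when only the groups of the contrast were fitted (0.435%) and 8 without the 4 libraries numbered 1 (11.4%). Leaving out single libraries gave 0 to 6, with 0.262% to 7.63% of all genes called. In KO the count of 1 became 10 with the replicate block (11.7%), 8 with DESeq2 (9.73%) and 9 without the libraries numbered 1 (13.1%). It was 2 with no filter on low counts (2.87%) and 2 with only the groups of the contrast (3.28%). Single libraries left out gave 0 to 2 (0.292% to 5.09% of all genes). The count was 0 in each case without an untreated library or replicate 2 of treated KO. Between genotypes the 16 of untreated cells became 25 (33%) and the 8 of treated cells 16 (29.2%) with the replicate block. With DESeq2 they became 22 (28.5%) and 13 (25.2%), and without the libraries numbered 1 20 (26.2%) and 15 (24.7%). With only the groups of the contrast they were 21 (28.7%) and 6 (11.7%). Single omissions gave 11 to 13 (15.1% to 17.4%) in untreated and 7 to 10 (12.3% to 21.4%) in treated cells. The interaction gave 1 with DESeq2 and 0 in every other fit run, the omissions included. The cause of these moves was not tested. Fits that left libraries out also rested on fewer libraries, the part of which was not tested either. The pairing by replicate number changed no other call than those named. Signs were checked for the panel, the genes called in the main fit and, where fewer than 4 were called, the 4 of smallest p. Among these, no value reversed its sign where it passed in the main fit or the alternative. Of all 1682 alternative values run for them, 122 changed sign where neither fit passed. The depth and 3 libraries a group limit genes of few counts, such as HSPB2, HSPB3 and DNAJB13. On simulated counts of the WT butyrate contrast, 2-fold changes were rarely called.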
